A study of Rattus norvegicus with 36 samples.

Results

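Polysomal RNA of rat skeletal muscle collected 6 h after resisted contractions was set against polysomal RNA of muscle whose labels name no contractions, over all non-control probe sets of an oligonucleotide array. The arrays were chosen by title, and they are 16 of the 36 in the series: 8 of the 6 h exercised group and 8 of the polysomal control, each with numbers 1 to 4 and 2 arrays of every number. The series profiled rat muscle after a bout of acute resistance exercise, in total and polysomal RNA, and the muscle is named in the labels as "ta" and no further. Its other groups used below are polysomal RNA 1 h after contractions (4 arrays, numbers 1 and 2), total RNA 6 h after contractions (8 arrays) and a control titled 1hr polysome (4 arrays, numbers 1 and 2), whose description names no polysomes.

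The description of the exercised group gives 6 h, and that of the polysomal control gives 1 h, while the control's titles carry no time. Taken at its word, that description makes collection time differ together with contraction, and then time and contraction cannot be told apart. No strain, sex, age or genotype of the rats is given, nor the way in which the contractions were produced. The labels also do not say whether numbers are separate animals, so the p-values below reflect how far numbers of a group differ. Part or all of that may be technical. For limma p-values and SEs this spread was pooled over all 6 groups of the series, unless a fit to the 2 groups is named.

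Polysomes are mRNAs that carry several ribosomes, and RNA prepared from them reports which transcripts are loaded for translation at the moment of collection. A transcript can be more abundant there because more of it is present in the tissue or because a larger part of it is on ribosomes. Muscle that has worked against a load is known to induce early transcription factors, heat shock proteins and proteins of the Z disc, the lattice that anchors the contractile filaments. In a whole muscle, fewer cells of a type and less RNA per cell cannot be told apart.

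Signals are the deposited intensities on a linear scale, and the 2 arrays of a number were averaged on the log2 scale, so every value below is 1 of 4 numbers per group. Signals below 129.5 were set to that floor, and 6707 probe sets above it on at least 4 arrays of the series were tested. The 16 arrays had medians of 148.5 to 248.6 and between 36.0% and 47.2% of their values at the floor. The 17 tested skeletal muscle fibre markers summed to signals of 156427 to 381234 in the 6 h exercised group and of 180634 to 523194 in the control, with no member at the floor on all 16 arrays. The beta-actin control probe sets, read as 3′ over 5′ signal for RNA length, gave 3.21 ± 0.44 in the 6 h exercised group and 2.42 ± 0.88 in the control (SD, n = 4 numbers each; two-sided exact permutation test p = 0.171, where 0.0286 is the smallest this design allows). Arrays 1A and 2A of both groups had lower maxima (18703 to 22497) than the 12 others (25145 to 71495).

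A small set of stress, early response, Z disc and cell surface transcripts rose 6 h after contractions, and 1 probe set without a symbol fell. limma called 23 of the 6707 probe sets at an adjusted p under 0.05, 22 of them higher (0.328% of those tested) and 1 lower (0.0149%). Of the 3903 genes, each represented by its brightest probe set, 15 rose (0.384%) and 0 fell (0.0%), with 3.05% above 0 and 2.87% below 0 at an unadjusted p under 0.05. A sixteenth gene, Dnaja1, rose by a dimmer probe set only, and 6 of the 23 probe sets have several symbols or none and stay unnamed. In all 23 the 4 numbers of one group lay outside the range of the other, as did 177 probe sets on the higher side (2.64%) and 131 on the lower side (1.95%) over the whole table. An unadjusted p under 0.05 was reached by 380 probe sets, 2.91% of those tested on the higher side and 2.76% on the lower side, where 335.35 would be reached by chance.

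**Figure D1:**
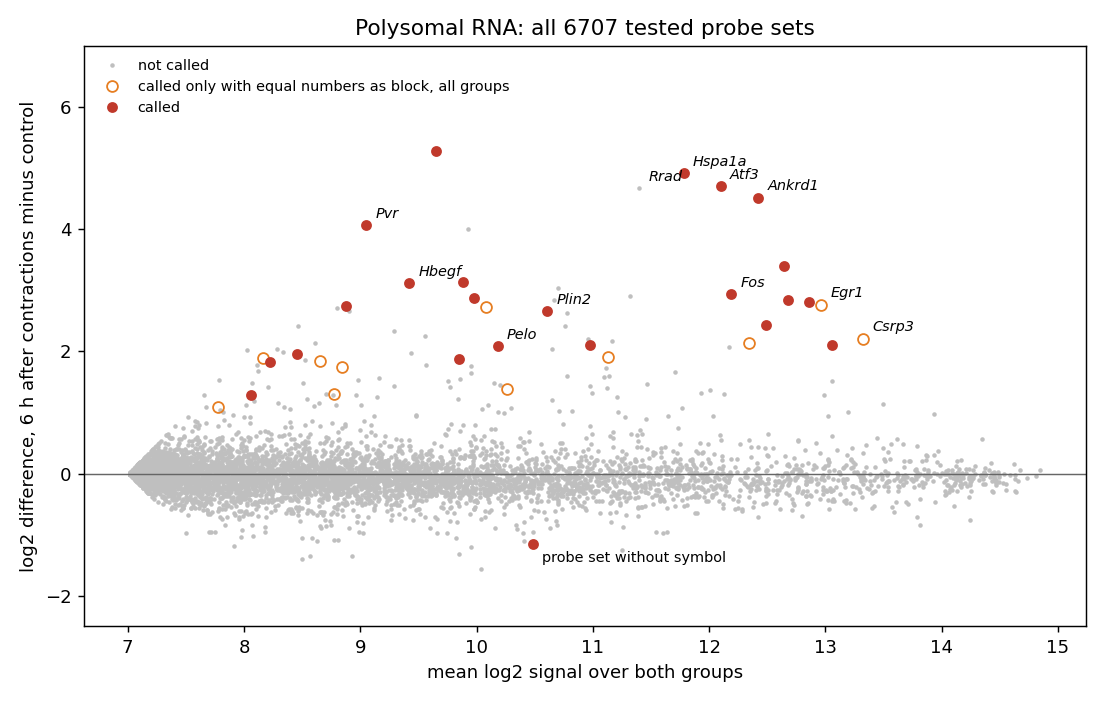
Log2 difference (6 h after contractions minus control, y axis) against the mean log2 signal of both groups (x axis) for the 6707 tested probe sets of polysomal RNA. Filled red points are the 23 called probe sets, 22 above 0 and 1 below it, and open orange circles are the 11 that pass only with equal numbers as a block in the fit over all groups.

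Equal numbers of both groups deviated from their group means together, so each result was also read with equal numbers as a block. The block within the 2 groups, which leaves 3 residual degrees of freedom, called 13 probe sets, all higher (0.194%), and 8 of them were among the 23; over genes it called 9 (0.231%). A block over all groups (8 residual degrees of freedom), added after the data were seen, called 33 probe sets, 32 higher (0.477%) and 1 lower (0.0149%), with 22 of the 23 among them; over genes it called 22 (0.564%). A blocked adjusted p is given below where it changes a call. All SEs below come from fits without a block. The count also rested on single numbers: it was 9, 38, 13 and 7 without numbers 1, 2, 3 and 4 of the 6 h exercised group, and 11, 14, 8 and 9 without numbers 1, 2, 3 and 4 of the control.

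Heat shock proteins, which refold damaged proteins and keep new chains from aggregating, held the highest named difference of all. Hspa1a, the inducible chaperone of the Hsp70 family, had signals of 18178, 13617, 19565 and 29062 in the 6 h exercised group, against 496, 750, 757 and 598 in the control. Every exercised number was far above every control number. The rise was 30.2-fold (log2 difference 4.92, SE 0.51, limma adjusted p = 0.000631), and it passed without any 1 of the 8 numbers. The Hsp70 family has near-identical copies that a probe set may not separate, so the value may belong to more than 1 gene. A called probe set with several symbols is left unnamed, and it is not counted as a heat shock gene here. It had signals of 21259, 10678, 23779 and 34070 in the 6 h exercised group and of 1611, 2792, 1909 and 1764 in the control. The log2 difference was 3.39 (SE 0.45, adjusted p = 0.00385), with adjusted p = 0.115 under the block within the 2 groups and 0.0039 over all groups.

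Dnaja1 is an Hsp40 cochaperone that hands substrates to Hsp70 and stimulates its ATPase. Its dimmer probe set had signals of 1991, 4334, 2369 and 3027 in the 6 h exercised group, against 297, 297, 414 and 287 in the control, and the groups did not overlap. The log2 difference was 3.13 (SE 0.56), which passed at adjusted p = 0.0273, and with the block it stood at adjusted p = 0.075 within the 2 groups and 0.0219 over all groups. The brighter probe set, with signals of 8322, 13626, 7464 and 9474 in the 6 h exercised group and of 2423, 4167, 1732 and 1459 in the control, did not pass (log2 difference 2.07, SE 0.55, adjusted p = 0.16). Its promoter is shown because it is the called heat shock gene whose window holds a heat shock element, the site of heat shock factors. The window is the 250 bases before the RefSeq start on the plus strand (GRCr8 chr5:60638154-60638403), and the capitals mark the element, at positions -181 to -174 from the start.

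Dnaja1 promoter: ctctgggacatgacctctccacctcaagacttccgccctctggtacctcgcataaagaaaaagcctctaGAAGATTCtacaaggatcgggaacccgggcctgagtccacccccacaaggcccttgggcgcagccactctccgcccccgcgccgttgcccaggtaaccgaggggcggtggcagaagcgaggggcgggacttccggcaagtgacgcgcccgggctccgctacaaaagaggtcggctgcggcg

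The element was searched as GAANNTTC or TTCNNGAA on both strands, and 13.5% of all 33469 promoter windows of this length hold it. Of the 16 genes that rose, 13 had a window, and 2 of them, Dnaja1 and Plin2, hold the element. The Hspa1a window used here holds none of the 9 motifs searched. A match of letters is a description of the window and shows no binding. Of the 25 tested cytosolic heat shock proteins and cochaperones 1 rose and 0 fell, and in 4 the numbers of the groups did not overlap on the higher side and in 1 on the lower side. Over all genes 0.384% rose, and 2.69% and 2.25% did not overlap on the higher and the lower side. The list had a median of 0.21, against -0.04 over all 3903 genes. The cochaperone Dnajb1 stood at 2.42 (SE 0.86, adjusted p = 0.503) and Hsph1, a nucleotide exchange factor of Hsp70, at 0.82 (SE 0.38, adjusted p = 0.875). The small heat shock proteins Hspb1 (-0.85, SE 0.58) and Cryab (-0.75, SE 0.47) lay below 0 and did not pass either. Among 14 chaperones of the endoplasmic reticulum 0 were called, with a median of -0.05.

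Early response transcription factors, which are switched on within minutes of a stimulus and set later waves of gene expression, were represented by Atf3 and Fos. Atf3, a stress-induced factor of the ATF/CREB family, had signals of 22968, 12742, 25325 and 34440 in the 6 h exercised group, against 656, 513, 984 and 1664 in the control. The lowest exercised number was several times the highest control number. The difference was 26.1-fold (log2 4.71, SE 0.64, adjusted p = 0.00385) and passed without any 1 of the 8 numbers. Fos, a subunit of the AP-1 factor, had 9971, 10338, 12562 and 21574 in the 6 h exercised group, against 2092, 1169, 2003 and 1659 in the control. It rose 7.66-fold (log2 2.94, SE 0.58, adjusted p = 0.043), but at adjusted p = 0.0816 it did not pass with the block within the 2 groups, while it did over all groups (0.0234). Without each 1 of the 8 numbers in turn Fos did not pass (adjusted p 0.0521 to 0.194), and all 3 of its probe sets lay above 0.

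Egr1 and Nr4a3 passed only with equal numbers as a block. Egr1, a zinc finger factor of the serum response, had 11744, 18238, 22005 and 40013 in the 6 h exercised group, against 2402, 3303, 3874 and 2871 in the control, with no overlap. Its log2 difference was 2.77 (SE 0.65), at adjusted p = 0.113 without the block, 0.0886 with it in the 2 groups and 0.0288 over all groups. Nr4a3, an orphan nuclear receptor induced by exercise, had 504, 441, 711 and 579 in the 6 h exercised group, against 130, 130, 201 and 144 in the control. Here the block within the 2 groups passed as well (log2 difference 1.89, SE 0.45; adjusted p = 0.123 without the block, 0.0207 within the 2 groups, 0.0322 over all groups). Only 2 of the 3 probe sets of Nr4a3 and all 4 of Egr1 lay above 0. The Egr1 window is shown because it holds 2 CArG boxes, the sites of serum response factor, at -105 to -96 and at -83 to -74 (capitals; GRCr8 chr18:26736828-26737077, plus strand, from RefSeq); 501 of all 33469 windows hold such a box.

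Egr1 promoter: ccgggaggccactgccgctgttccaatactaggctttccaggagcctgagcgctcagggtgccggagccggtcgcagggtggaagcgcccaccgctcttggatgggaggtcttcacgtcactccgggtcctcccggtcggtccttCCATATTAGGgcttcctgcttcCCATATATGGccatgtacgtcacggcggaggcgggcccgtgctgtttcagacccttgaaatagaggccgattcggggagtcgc

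Of the 34 tested immediate early and stress transcription factors 2 rose and 0 fell, where 0.384% and 0.0% of all genes did. With the block over all groups 4 passed, where 0.564% of all genes did. In 8 of them the groups did not overlap on the higher side and in 0 on the lower side, where over all genes 2.69% and 2.25% did so, and the list had a median of 0.15. Fosl1, an AP-1 subunit, had 440, 250, 625 and 1101 in the 6 h exercised group and lay at the floor on 7 of 8 control arrays (log2 difference 2.02, SE 0.49, adjusted p = 0.125). Klf6 stood at 1.73 (SE 0.49, adjusted p = 0.217) and the AP-1 subunit Junb at 1.52 (SE 0.48, adjusted p = 0.357), both without overlap, while Jun (1.32, SE 0.61) and Myc (1.04, SE 0.33) overlapped.

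Named genes of growth arrest, signal shutdown and stress recovery gave no call without the block. Among 21 tested members 0 were called, although their median of 0.39 was the highest of the 22 lists. The 6 called probe sets left unnamed entered no list, and whether any of them belongs here was not tested. Gadd45a, a stress-induced growth arrest protein, had 4733, 3933, 4760 and 6299 in the 6 h exercised group, against 1011, 1587, 911 and 931 in the control (log2 difference 2.17, SE 0.76, adjusted p = 0.481). Its groups lay well apart, and its SE is pooled over all 6 groups of the series. Dusp5, a nuclear phosphatase of ERK, stood at 1.12 (SE 0.27, adjusted p = 0.125), and the kinase Pim3 at -1.06 (SE 0.30, adjusted p = 0.214).

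Ppp1r15a, which brings a phosphatase to the initiation factor eIF2 and so restores translation after stress, rose with the block over all groups. It had 3983, 3249, 5272 and 5225 in the 6 h exercised group, against 779, 952, 1549 and 1535 in the control. The groups did not overlap, and the log2 difference was 1.91 (SE 0.45; adjusted p = 0.106 without the block, 0.0511 within the 2 groups, 0.0478 over all groups). Its window is shown because it is the one among these genes that holds a full cAMP response element, TGACGTCA, the site of CREB and ATF factors, in capitals at -66 to -59 (GRCr8 chr1:105139597-105139846, minus strand, from RefSeq). A TATA box follows at -39 to -34, and 1.59% of all windows hold the full element, with none among the genes called without the block.

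Ppp1r15a promoter: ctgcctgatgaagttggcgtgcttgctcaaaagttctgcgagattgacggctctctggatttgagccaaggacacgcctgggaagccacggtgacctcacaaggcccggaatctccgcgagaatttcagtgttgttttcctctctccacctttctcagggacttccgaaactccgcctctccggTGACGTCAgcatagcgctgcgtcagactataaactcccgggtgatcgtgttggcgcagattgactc

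Among stretch-responsive and Z disc genes Ankrd1 and Flnc rose. Ankrd1 is an ankyrin repeat protein that sits at titin in the sarcomere and also enters the nucleus, and its signals were 25397, 19368, 22750 and 42868 in the 6 h exercised group, against 1177, 1389, 1080 and 986 in the control. All 4 exercised numbers were far above all 4 control numbers. The rise was 22.9-fold (log2 4.52, SE 0.84, adjusted p = 0.0333). With the block Ankrd1 missed the threshold within the 2 groups (adjusted p = 0.0507) and passed over all groups (0.0234), and it kept its call in 1 of the 8 fits without a number, that without number 2 of the 6 h exercised group.

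Flnc, the muscle filamin that crosslinks actin at the Z disc and is recruited to sites of damage, had 18680, 13433, 14270 and 27578 in the 6 h exercised group, against 4544, 3491, 4594 and 3941 in the control. Both of its probe sets rose, this one by 2.11 (SE 0.41, adjusted p = 0.043) and the dimmer one by 2.43 (SE 0.40, adjusted p = 0.0154), and both stood at adjusted p = 0.087 with the block within the 2 groups, against 0.0242 and 0.0105 over all groups. The brighter one kept its call in 1 of the 8 fits without a number, that without number 2 of the 6 h exercised group. Csrp3, the muscle LIM protein of the Z disc, had 22509, 16728, 21718 and 29220 in the 6 h exercised group, against 2682, 5124, 5539 and 6864 in the control. Its log2 difference was 2.21 (SE 0.51 without the block). That of the kelch protein Klhl41, which stabilises the sarcomere, was 2.14 (SE 0.49 without the block). Both genes passed only with the block over all groups (adjusted p = 0.0219 for Csrp3 and 0.046 for Klhl41), against 0.104 and 0.0977 without it. Rrad, a small GTPase that restrains calcium channels, had 15436, 3608, 18149 and 34344 in the 6 h exercised group, against 439, 268, 707 and 992 in the control. Number 2 was the lowest of both groups, and the log2 difference was 4.67 (SE 1.08 without the block). Rrad passed only with the block within the 2 groups (adjusted p = 0.0467, against 0.104 without the block and 0.0587 over all groups).

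Of the 33 tested stretch-responsive, Z disc and cytoskeletal genes 2 rose and 0 fell, in 6 the groups did not overlap on the higher side, and the median was 0.20, beside 0.384% called and 2.69% not overlapping over all genes. Anxa2, an annexin of membrane repair, was among the 6 (1.25, SE 0.48, adjusted p = 0.607). Sarcomere genes of the fibre types gave no call: 0 of 15 fast fibre genes (median -0.03) and 0 of 12 slow fibre genes (median 0.04) were called. The fast myosin Myh4 stood at -0.28 (SE 0.31), the fast troponin Tnni2 at -0.28 (SE 0.33) and the slow tropomyosin Tpm3 at 0.68 (SE 0.29).

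**Figure D2:**
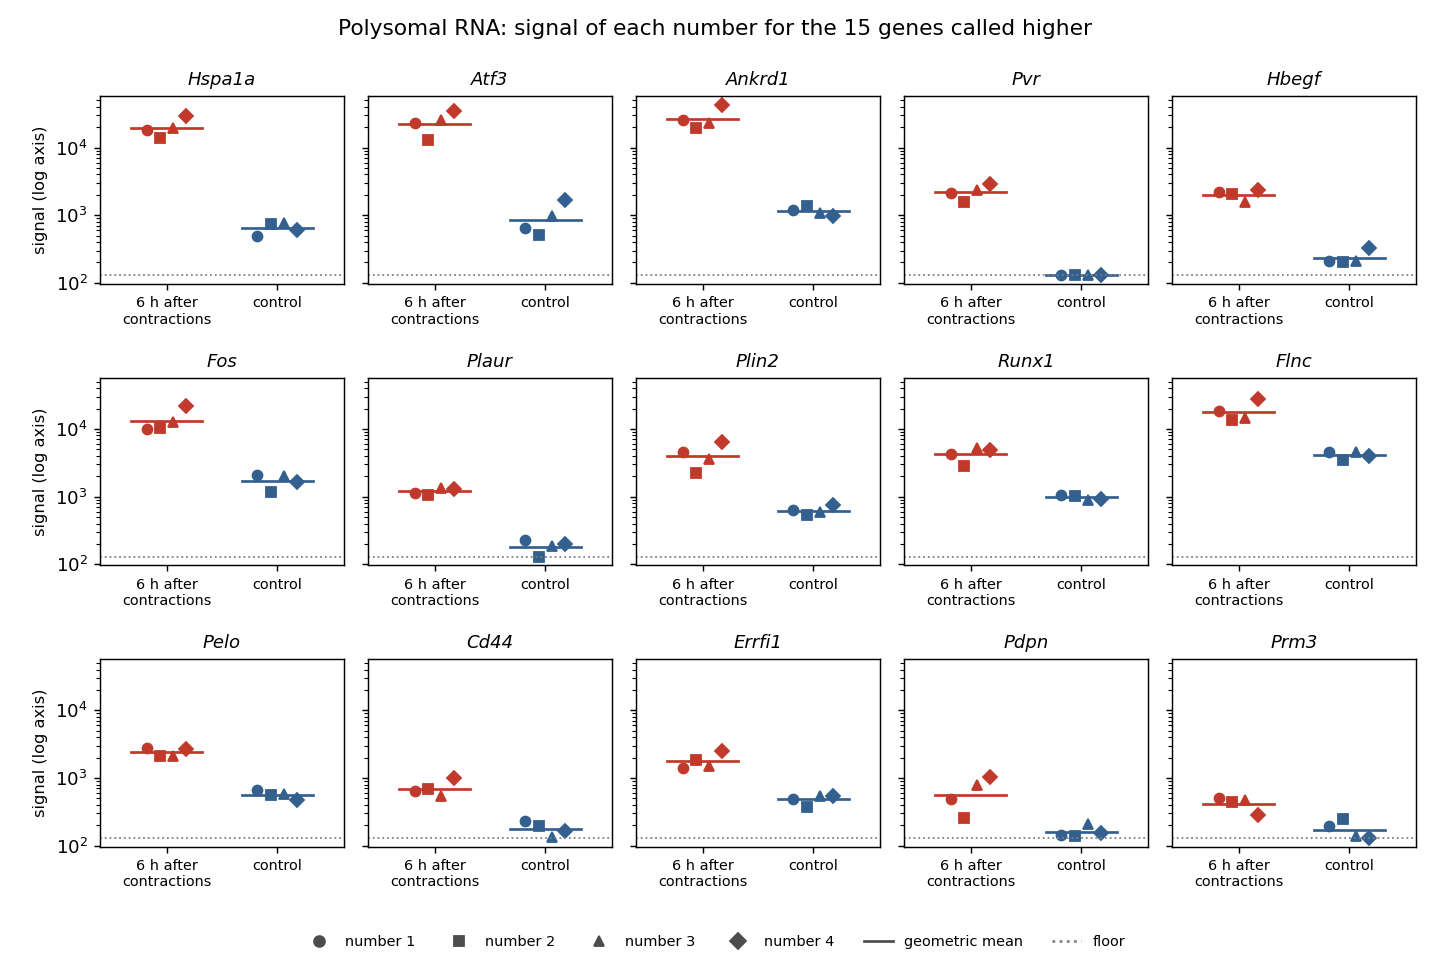
Signal (log axis) of each of the 4 numbers for the 15 genes called higher by their brightest probe set, 6 h after contractions (red, left) and control (blue, right); bars are geometric means and the dotted line is the floor of 129.5. In every panel the 4 exercised numbers lie above the 4 control numbers, and the 4 control numbers of Pvr lie at the floor.

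Signalling at the EGF receptor was represented on both its activating and its inhibiting side. Hbegf, a membrane-bound ligand of the receptor that is released by cleavage, had 2164, 2076, 1589 and 2317 in the 6 h exercised group, against 208, 205, 208 and 332 in the control. The groups were well apart, with 1 control number above the other 3. The rise was 8.65-fold (log2 3.11, SE 0.46, adjusted p = 0.00821), passed with both blocks and without any 1 number, and had the same sign in a second probe set (0.92, SE 0.25, adjusted p = 0.19). Errfi1, an inducible inhibitor that binds the receptor's kinase domain, had 1400, 1832, 1491 and 2543 in the 6 h exercised group, against 494, 371, 544 and 549 in the control. It rose by 1.87 (SE 0.32, adjusted p = 0.02), stood at adjusted p = 0.087 with the block within the 2 groups and 0.0188 over all groups, and 1 of its other 2 probe sets lay at 0.15 and 1 at -0.03. The call was kept in 3 of the 8 fits without a number, those without numbers 1, 2 and 3 of the 6 h exercised group. Of the 15 tested members of the list 2 were called higher, where 0.384% of all genes were. The remaining 13 were not called, the median was -0.03, and the adaptor Grb2 stood at -0.40 (SE 0.16, adjusted p = 0.629).

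Of the 39 tested genes of adhesion, migration and pericellular proteolysis 4 were called higher and 0 lower, where 0.384% of all genes were called higher. The lists were chosen with earlier results of these data known, so this count describes the list and is no test of enrichment. Pvr, the nectin-like receptor CD155, had 2124, 1555, 2361 and 2866 in the 6 h exercised group and lay at the floor in all 4 control numbers. It was at least 16.8-fold higher after contractions (adjusted p = 0.0154, with both blocks passing). Without a number it kept its call in 2 of 8 fits, those without number 2 of either group, with adjusted p of 0.0228 to 0.0747 over the 8. Plaur, the receptor that concentrates the protease urokinase at the cell surface, had 1142, 1072, 1356 and 1302 in the 6 h exercised group, against 226, 130, 189 and 197 in the control. Its 4 exercised numbers were close to each other, and control number 2 lay at the floor. Plaur rose at least 6.68-fold (log2 2.74, SE 0.43, adjusted p = 0.0118), passed with both blocks, and missed the threshold without number 4 of the 6 h exercised group (0.0511). The Plaur window is shown because it holds the AP-1 site that Fos-containing dimers recognise (TGANTCA, both strands, in 6.34% of all windows), in capitals at -83 to -77 (GRCr8 chr1:89181113-89181362, plus strand, from RefSeq). An E box, CAGCTG, overlaps it at -87 to -82, and no other gene called without the block has the AP-1 letters in its window.

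Plaur promoter: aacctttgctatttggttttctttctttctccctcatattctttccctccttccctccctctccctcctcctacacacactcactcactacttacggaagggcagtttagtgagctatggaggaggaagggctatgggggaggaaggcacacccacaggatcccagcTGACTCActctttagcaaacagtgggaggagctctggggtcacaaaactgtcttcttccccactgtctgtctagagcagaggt

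Cd44, the receptor of the matrix polymer hyaluronan, had 643, 682, 536 and 984 in the 6 h exercised group, against 234, 196, 135 and 164 in the control. It rose by 1.96 (SE 0.32, adjusted p = 0.0154), with adjusted p = 0.087 under the block within the 2 groups and 0.0138 over all groups; its other probe set, near the floor, stood at -0.15. It missed the threshold without number 1 or 4 of the 6 h exercised group and without number 3 or 4 of the control (adjusted p up to 0.0747). Pdpn, the mucin-like glycoprotein podoplanin, had 490, 252, 775 and 1029 in the 6 h exercised group, against 143, 140, 208 and 153 in the control. Its exercised numbers were far apart, and number 2 was the lowest in both groups. The rise of 1.82 (SE 0.36, adjusted p = 0.043) did not pass with the block within the 2 groups (0.203) and passed over all groups (0.0219), and of the 8 fits without a number it kept its call in that without number 2 of the 6 h exercised group. In 8 of the 39 members the groups did not overlap on the higher side (2.69% over all genes) and in 0 on the lower side (2.25%), and the median was 0.16. Timp1, an inhibitor of matrix proteases, stood at 1.20 (SE 0.36, adjusted p = 0.273), and the tetraspanin Cd63, named after its values were seen, at 0.95 (SE 0.35, adjusted p = 0.555).

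Among regulators of muscle growth Runx1 rose, a transcription factor known from denervated and regenerating muscle. Its signals were 4212, 2831, 5303 and 4864 in the 6 h exercised group, against 1058, 1027, 880 and 932 in the control, with little spread among the control numbers. The rise was 4.31-fold (log2 2.11, SE 0.40, adjusted p = 0.0333); Runx1 is the called gene that missed the threshold with both blocks (0.087 within the 2 groups, 0.0597 over all groups). It kept its call in 1 of the 8 fits without a number, that without number 2 of the 6 h exercised group. Myf6, the myogenic factor of mature fibres, had 4579, 5951, 4608 and 5291 in the 6 h exercised group, against 2203, 3068, 2052 and 2406 in the control. Numbers 2 were highest in both groups, and the difference was 1.08 (SE 0.33 without the block). Myf6 passed only with the block within the 2 groups (adjusted p = 0.0324, against 0.289 without it and 0.0935 over all groups). Of the 49 tested members 1 rose and 0 fell, where 0.384% and 0.0% of all genes did, and the median was -0.01. Fgf1, a growth factor, stood at 1.23 (SE 0.26, adjusted p = 0.061) and the matricellular protein Ccn1 had 241, 625, 793 and 1461 in the 6 h exercised group, against 131, 180, 150 and 193 in the control (adjusted p = 0.173). The myogenic factors Myod1 (0.98, SE 0.29, adjusted p = 0.273) and Myog (1.76, SE 0.77, adjusted p = 0.787), named after their values were seen, lay above 0 and did not pass.

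Pelo, which recognises stalled ribosomes and starts their release, was the 1 called gene of the 26 tested translation factors. Over all genes 0.384% were called higher. It had 2750, 2130, 2082 and 2681 in the 6 h exercised group, against 664, 570, 570 and 470 in the control. Both groups were tight, and the rise was 4.24-fold (log2 2.08, SE 0.32, adjusted p = 0.0105). It passed with the block within the 2 groups (0.0498) and over all groups (0.0219), and missed the threshold without number 4 of the 6 h exercised group (0.0508). The kinases Eif2ak2 (-0.57, SE 0.24) and Eef2k (-0.71, SE 0.32), which phosphorylate an initiation and an elongation factor, did not pass. Of the 40 cytosolic ribosomal protein genes, whose mRNAs are regulated as a group at the level of ribosome loading, 0 were called, 26 lay above 0 and the median was 0.08. Rpl14, with the smallest p among them, stood at 0.44 (SE 0.17, adjusted p = 0.591).

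In fuel metabolism 1 of 39 tested lipid genes rose, where 0.384% of all genes did. Plin2, the coat protein of lipid droplets, had 4543, 2240, 3637 and 6347 in the 6 h exercised group, against 632, 536, 596 and 743 in the control. The 4 numbers ran in the same order in both groups, with number 2 lowest and number 4 highest. It rose 6.29-fold (log2 2.65, SE 0.48, adjusted p = 0.0296), stood at adjusted p = 0.0612 with the block within the 2 groups and at 0.0138 over all groups, and kept its call in 1 of the 8 fits without a number, that without number 2 of the 6 h exercised group. Of the 39 tested members of the list, Plin2 included, 31 lay below 0, as did 2326 of all 3903 genes. The list's median was -0.26 by brightest probe sets and -0.17 over all its probe sets. Lpl, the lipase that releases fatty acids from circulating lipoproteins, stood at -0.53 (SE 0.27, adjusted p = 0.983). Ppard, a nuclear receptor of fatty acid use, gave opposite signs, with a dim probe set at 1.09 that passed with the block over all groups (adjusted p = 0.0423) and the brightest at -0.27.

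Carbohydrate genes did not pass in either direction, with 0 of 31 tested and a median of -0.03. The glucose transporter Slc2a1 stood at 1.86 (SE 0.53, adjusted p = 0.229) and Hk2, the muscle hexokinase, at 1.31 (SE 0.41, adjusted p = 0.34), both without overlap. Pfkfb1, which sets the level of a regulatory fructose bisphosphate that activates glycolysis, had 913, 1166, 764 and 1012 in the 6 h exercised group, against 1840, 1634, 1746 and 1902 in the control (log2 difference -0.90, SE 0.21, adjusted p = 0.115). The respiratory chain, with 55 nuclear-encoded members tested, gave 0 calls and 45 values below 0, with a median of -0.11, where 2326 of all 3903 genes lay below 0. Their paired medians were 0.09, -0.20, 0.24 and -0.53 for numbers 1 to 4, so the numbers did not share a direction. Of 58 proteasome, ubiquitin, calpain and cathepsin genes 0 were called, 47 lay below 0, to be read against the same 2326 of 3903, and the median was -0.18, and of 28 antioxidant genes 0 were called with a median of -0.17. Hmox1, the inducible heme oxygenase, lay above 0 in the antioxidant list, with 3430, 955, 1749 and 1637 in the 6 h exercised group, against 766, 578, 412 and 536 in the control (log2 difference 1.65, SE 0.34, adjusted p = 0.0569).

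Other genes called without the block or with it do not share a list, and of those below Homer1 is a member of the growth arrest list. Prm3, annotated as a protamine-family protein, rose by 1.29 (SE 0.25, adjusted p = 0.043; 0.126 with the block within the 2 groups and 0.0219 over all groups), with low signals of 503, 443, 478 and 286 in the 6 h exercised group and 196, 245, 138 and 130 in the control. It kept its call in 2 of the 8 fits without a number, those without number 4 of the 6 h exercised group and without number 2 of the control. P2rx5, an ATP-gated cation channel, had 2714, 2350, 2190 and 4312 in the 6 h exercised group, against 359, 426, 515 and 408 in the control (log2 difference 2.72, SE 0.55; adjusted p = 0.0508 without the block, 0.0288 with it over all groups). It lay just outside the threshold, beside Prm3 just inside it. Mllt3, a chromatin reader (1.39, SE 0.29), and Uck2, a kinase of pyrimidine salvage (1.83, SE 0.45), passed only with the block over all groups (adjusted p = 0.0234 and 0.0423). Homer1, a scaffold of calcium signalling, did so by 1 of its 6 probe sets (1.30, adjusted p = 0.0234), while its other 5 lay between -0.33 and -0.16.

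On the lower side 1 probe set fell, and it has no symbol. It had 769, 1175, 1121 and 848 in the 6 h exercised group, against 1842, 1738, 2877 and 2295 in the control (log2 difference -1.16, SE 0.22, adjusted p = 0.0333; 0.144 with the block within the 2 groups and 0.0178 over all groups). Named genes with the smallest p below 0 did not pass. Il15, a cytokine made by muscle, had 1282, 2516, 1805 and 1065 in the 6 h exercised group, against 2658, 3355, 4855 and 4598 in the control (log2 difference -1.25, SE 0.26, adjusted p = 0.0569), and all 3 of its probe sets lay below 0. Clk3, a kinase of splicing factors, stood at -1.06 (SE 0.22, adjusted p = 0.0612), and Pde4a, which degrades cAMP, at -1.10 (SE 0.24, adjusted p = 0.0744). The zinc finger factor Vezf1 (-1.21, SE 0.30), the carnitine transporter Slc22a5 (-0.88, SE 0.22) and the PI3 kinase inhibitor Pik3ip1 (-0.71, SE 0.18) followed with adjusted p of 0.145, 0.147 and 0.15. Kcnj11, a pore subunit of the ATP-sensitive potassium channel, stood at -0.71 (SE 0.29), and of the 15 acetylcholine receptor, embryonic myosin and excitability genes 0 were called.

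**Figure D3:**
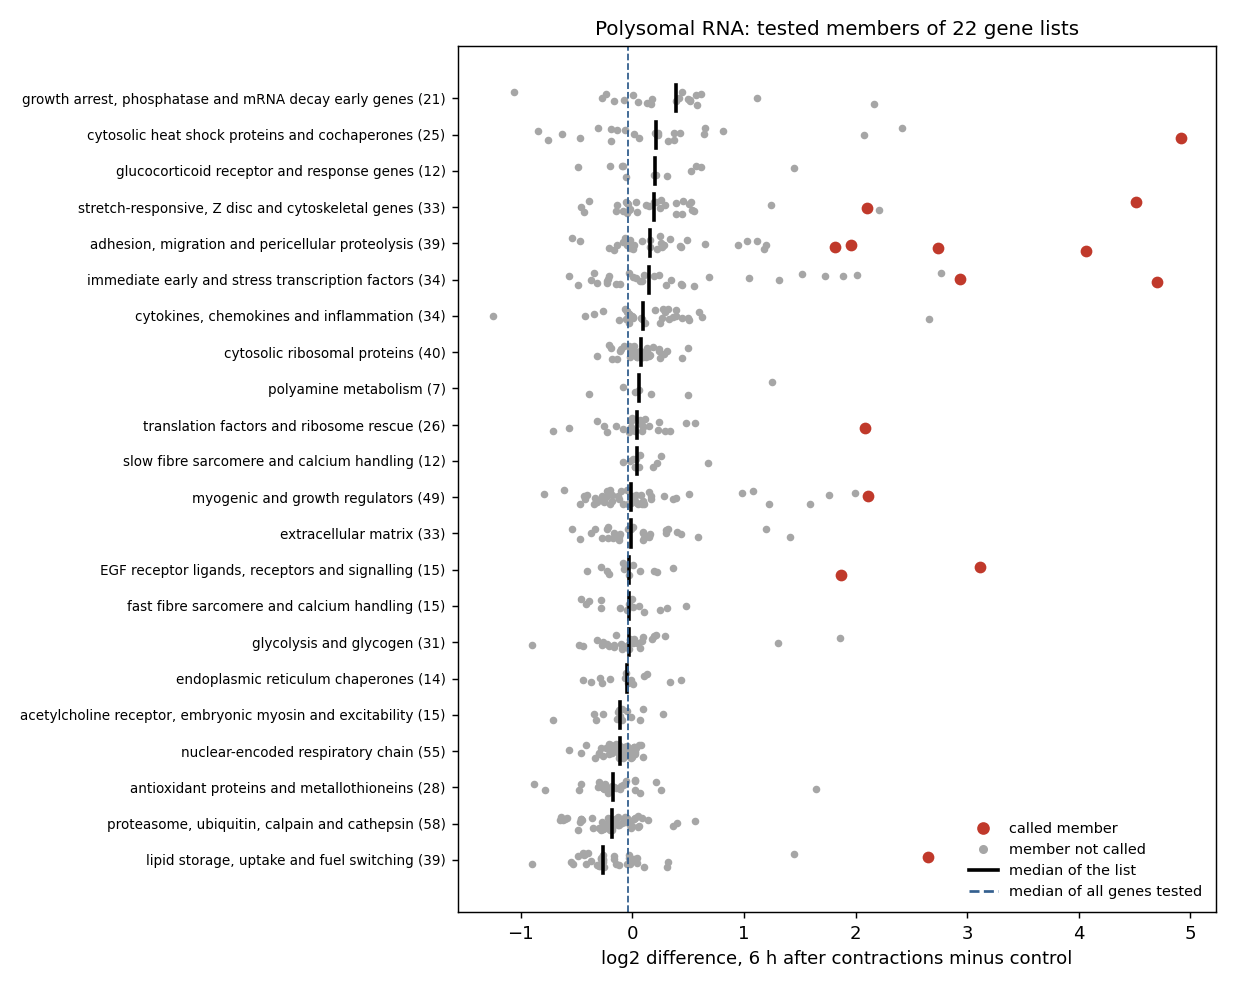
Log2 difference (6 h after contractions minus control) of every tested member of 22 gene lists, with the number of tested members in brackets, the median of each list as a black bar and that of all 3903 genes as a dashed line at -0.04. Called members (red) lie far to the right of lists whose medians run from -0.26 to 0.39, and a gene held by more than 1 list appears in each.

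Inflammatory genes and markers of blood and immune cells gave no call. Ccl2, a chemokine that attracts monocytes, had 816, 173, 2610 and 5692 in the 6 h exercised group, against 154, 144, 308 and 194 in the control. Its exercised numbers were far apart and number 2 overlapped the control, so the difference of 2.66 (SE 0.84) did not pass (adjusted p = 0.342). Of 34 tested cytokine and inflammation genes 0 were called, with a median of 0.10. Of 13 macrophage markers 0 were called, and none lay at the floor on all 16 arrays. For numbers 1 to 4 their summed signal was 15029, 10979, 23814 and 18788 in the 6 h exercised group. In the control it was 12720, 9593, 14237 and 14502. The ranges overlapped. The sum was higher after contractions in every pair of equal number, but a sum follows its brightest members. The median log2 difference of the 13 markers was 0.19, 0.13, 0.0 and -0.08 in the pairs of numbers 1 to 4. Of the 13 markers 9 lay above 0 and 4 below it. The lysozyme gene Lyz2 had 1990, 1165, 10475 and 7149 in the 6 h exercised group, against 1650, 1064, 1381 and 1465 in the control, and Lgals3 stood at 1.11 (SE 0.38). Ptprc, the pan-leukocyte antigen CD45, stood at -0.21 (SE 0.24) and Cd74 at -0.10 (SE 0.33). Cd44, Plaur and Pdpn are also expressed outside muscle fibres, and the part of macrophages in their rise was not tested. Neutrophil, lymphocyte, red cell, adipocyte, endothelial, nerve and fibroblast markers also gave 0 calls, and their summed signals overlapped between groups. The adipocyte sum was lower after contractions in every pair of equal number, but its members did not share that direction. Of the 7 tested adipocyte markers 4 lay above 0 and 3 below it, with a median of 0.09. Their median log2 difference was 0.28, -0.05, -0.20 and 0.11 in the pairs of numbers 1 to 4.

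The paired differences show how far the 4 numbers agreed. For Hspa1a they were 5.20, 4.18, 4.69 and 5.60 on the log2 scale for numbers 1 to 4, and for Myf6 1.06, 0.96, 1.17 and 1.14. Control numbers 1 and 2 of Nr4a3, number 2 of Plaur, number 4 of Prm3 and all 4 of Pvr lie at the floor, so those differences are lower bounds. All 15 genes called by their brightest probe set, and the 10 called by that probe set only with a block, were higher in 4 of 4 pairs, as were 305 of the 3903 genes (7.81%) and 497 probe sets (7.41%). In the other direction 492 genes (12.6%) and 756 probe sets (11.3%) were lower in 4 of 4 pairs.

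**Figure D4:**
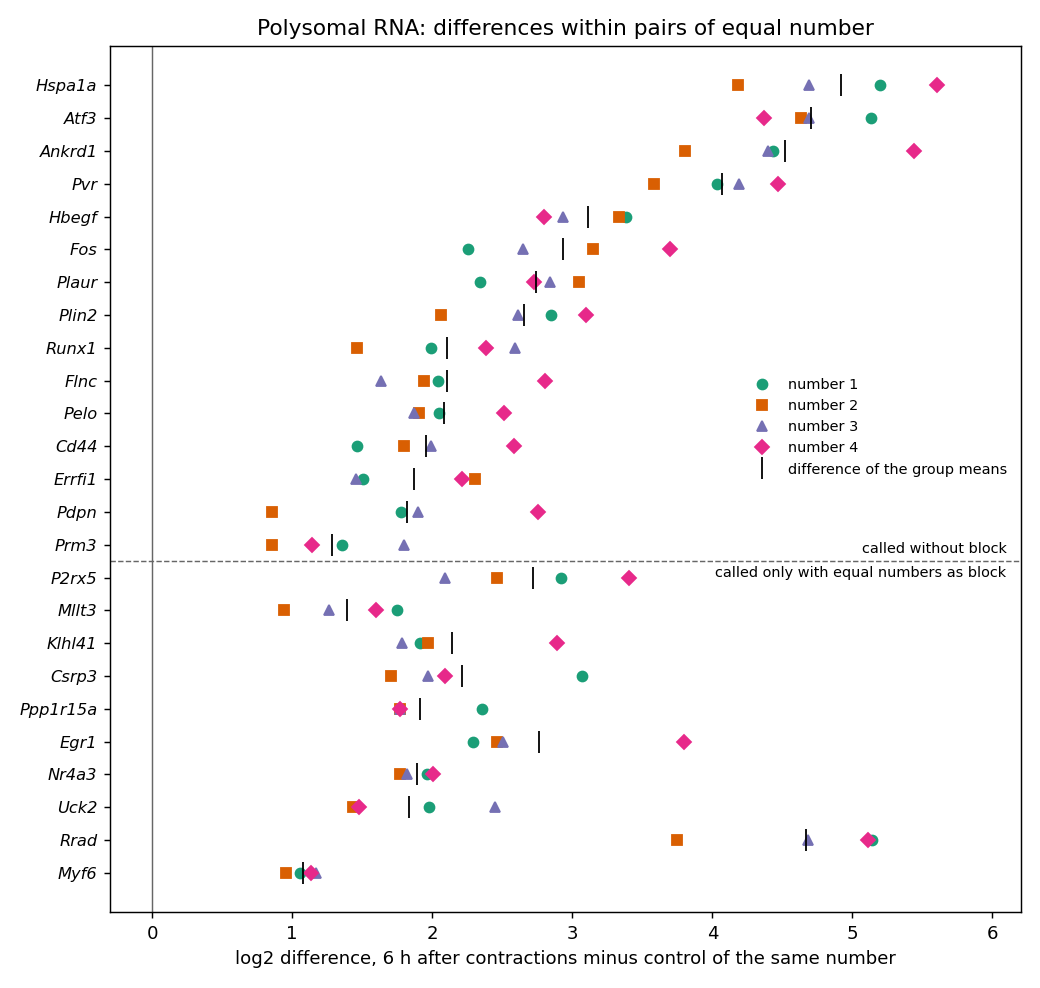
Log2 difference between the 6 h exercised number and the control of the same number (4 symbols per gene), with the difference of the group means as a black tick. Genes above the dashed line were called without a block and those below it only with equal numbers as a block; all symbols lie to the right of 0, and Myf6 has the 4 symbols close together.

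The control titled 1hr polysome served as a second uncontracted group, and both comparisons share the 6 h arrays. Against it 16 probe sets were called (0.239%), 12 higher and 4 lower. Hspa1a stood at 4.97 (adjusted p = 0.00701) and Hbegf at 3.79 (adjusted p = 0.0107), whereas Ankrd1 at 4.76 (adjusted p = 0.0872) and Runx1 at 2.12 (adjusted p = 0.106) did not pass with these 2 control numbers. Without either of the 2 numbers of that control 0 probe sets were called. Nr4a3 stood at 0.55 there (SE 0.56, adjusted p = 0.875).

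Polysomal RNA 1 h after contractions shows where the same transcripts stood earlier, against the control titled 1hr polysome. Runx1 had 1077 and 994 at 1 h, against 1201 and 775 in that control (log2 difference 0.10, SE 0.56), while at 6 h its lowest number was 2831. Egr1 had 50213 and 6442 at 1 h, against 2286 and 1633 (3.22, SE 0.92), and Ankrd1 had 907 and 30248, against 1314 and 720 (2.43, SE 1.19), so the 2 exercised numbers at 1 h differed from each other many times over. The response at 6 h minus that at 1 h was 2.01 for Runx1 (SE 0.69), 1.73 for Hspa1a (SE 0.89) and -0.45 for Egr1 (SE 1.13), and none passed (adjusted p = 1 each). Over all probe sets limma called 0 such differences (0.0%), with 173 at an unadjusted p under 0.05, and without number 1 of the 1 h exercised group it called 17.

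**Figure D5:**
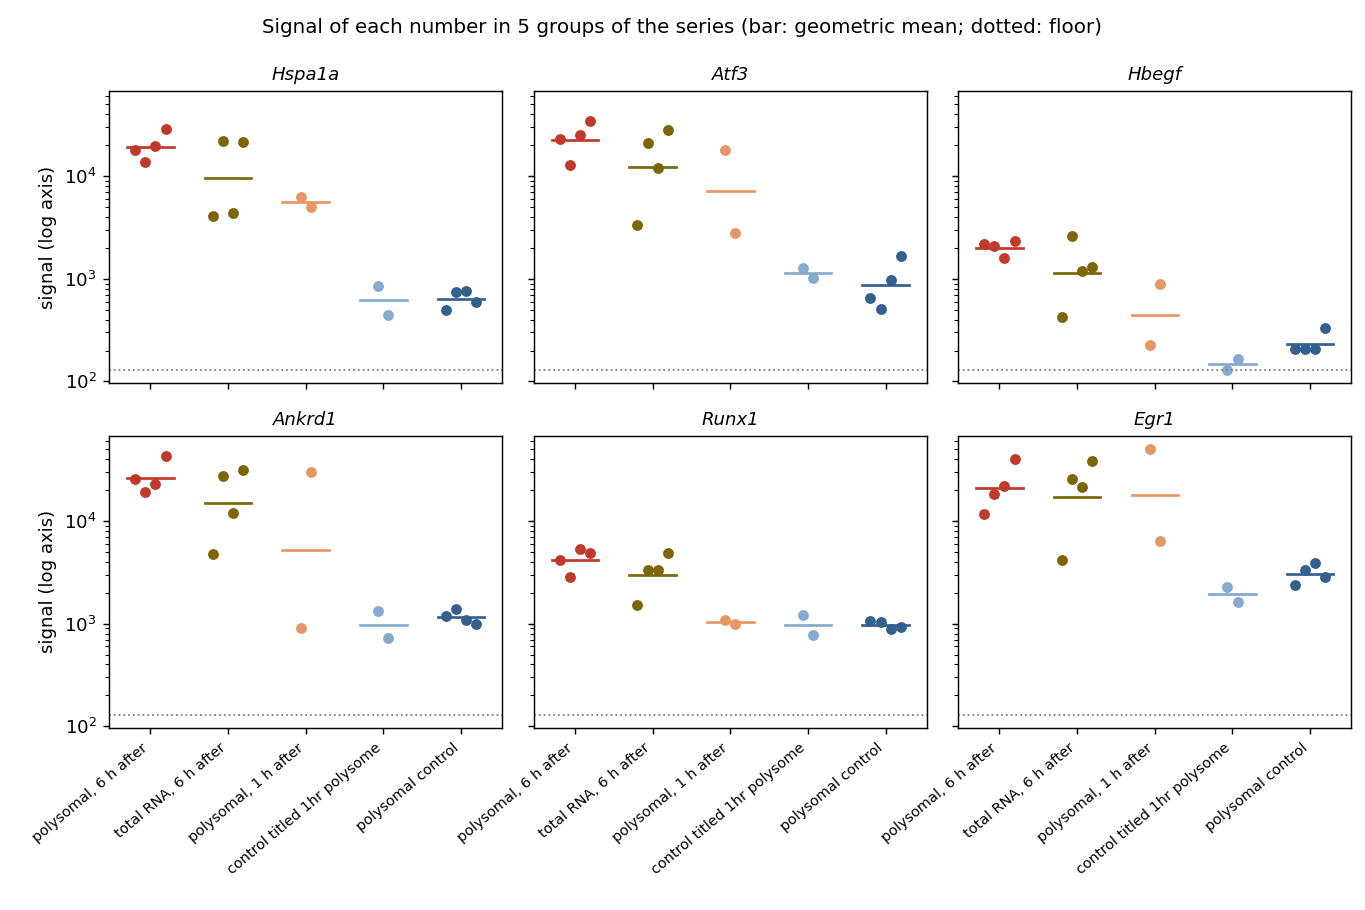
Signal (log axis) of every number in 5 groups for 6 genes, with geometric means as bars and the floor as a dotted line. In all 6 panels the 4 polysomal numbers 6 h after contractions lie above both control groups, and the 2 numbers at 1 h are far apart for Atf3, Ankrd1 and Egr1.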

How the data were processed

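RNA was hybridised to 1-colour oligonucleotide arrays. The authors deposited intensity signals, 1 per probe set and array, in a table of all 36 arrays; which software and background correction made them is not given in the sources used here. These deposited intensity values were already scaled, with a 2% trimmed mean of 801.0 to 801.9 on every array, and this scaling was kept; its target and any earlier centring are unknown. Of 8799 probe sets 59 controls were dropped, the 40th percentile of the other values (129.5) served as a floor under all signals, and log2 values of a number's 2 arrays were averaged. limma 3.58.1 in R 4.3.3 (lmFit, contrasts.fit, eBayes) was fitted over 6 groups and 18 numbers with 12 residual degrees of freedom, with two-sided p-values adjusted by Benjamini and Hochberg across the 6707 probe sets that exceeded the floor on 4 or more arrays, and a threshold of 0.05. The pooled spread includes number 3 of total RNA 6 h after contractions. Its 2 arrays had 3′ over 5′ ratios of 9.01 and 11.5 for beta-actin and of 11.4 and 9.73 for Gapdh. On the 16 arrays compared, the ratios ran from 1.58 to 4.48 for beta-actin and from 0.037 to 1.30 for Gapdh. The part of that number in the SEs was not tested.

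Symbols came from the platform annotation (7006 probe sets with 1 symbol, 308 with several, 1426 with none); probe sets with several or none were not named. Those left unnamed entered no gene list, so a list without calls has none among its named members only. Promoter windows came from RefSeq (GRCr8). The titles share numbers between groups, and the deviations of equal numbers from their group means correlated at 0.456, 0.538, 0.444 and 0.431, each number best with its own, so equal numbers were taken as pairs. Members, lists, named genes and tests were chosen with earlier results of these data known. The rule named genes with a called probe set with or without the block, the 12 genes on each side of 0 with the smallest p that did not pass, the 3 smallest p of each list, and defining members of the heat shock, early gene, stretch and marker lists. The calling was also run on simulated data, in which numbers varied independently and no floor was set. Such data cannot check calls where equal numbers deviate together or signals lie at the floor. The number of arrays limits the precision.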

Additional observations from a re-analysis of the deposited data

Results flagged for a closer look

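Single numbers stood apart from the other 3 of their group in 8 of 142 groups examined, by a gap divided by the group's range above Dixon's critical value for 4 samples; chance gives about 1 in 20. On the 6 h exercised side this was number 2 for Slc22a5, at 450 against 321 to 327 (ratio 0.942). In the control, number 4 was high for Hbegf, at 332 against 205 to 208 (0.973), and low for Clk3, at 437 against 544 to 564 (0.859), and for Prph, at 207 against 246 to 254 (0.845). Number 2 of the control was low for Dusp5, at 255 against 311 to 323 (0.839), and high for Lcn2, at 157 against 130 to 132 (0.904). Number 3 was high for Spire1, at 163 with the others at the floor (1.0), and number 1 for Eef2k, at 2572 against 1551 to 1685 (0.836). Of these genes Hbegf was called, and it passed without that number as well.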

How the results depend on the processing

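For polysomal RNA 6 h after contractions versus polysomal control, per probe set, the count of calls was 23. It became 13 with the replicate block in the 2 groups (pairing by equal numbers) and 62 with those groups alone and no block. It was 8 with no filter on dim probe sets, 41 with a stricter one, 15 with the arrays without the letter b, 6 with those that carry it and 152 with 16 arrays and the number as a random block. With numbers 1 and 2 only, and with numbers 3 and 4 only, limma called 0, with 150 and 315 probe sets at an unadjusted p under 0.05. Leaving out single numbers gave 7 to 38. Against the control titled 1hr polysome the count of 16 became 5 with no filter and 0 to 13 without single numbers, and for 6 h minus 1 h it ran from 0 to 17 without single numbers. The difference in 3′ to 5′ ratio was 0.784 for beta-actin and 0.226 for Gapdh (two-sided exact permutation p = 0.4). Of 1633 recomputed differences of 71 genes 1630 kept their direction; against the control titled 1hr polysome Ctsk stood at 0.40, Psme2 at 0.0409 and Gclm at 0.0868. Medians of 31 lists relative to all genes moved by less than the spread between pairs in 92 of 93 cases. Values at the floor have no order, so dim genes carry only bounds.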

Other observations

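A few values outside the lists led above may interest a reader of these arrays. Azin1, the inhibitor of the antizyme that degrades ornithine decarboxylase, had 808, 1235, 849 and 683 in the 6 h exercised group, against 374, 381, 413 and 308 in the control, and did not pass (log2 difference 1.25, SE 0.30, adjusted p = 0.125), while Amd1 stood at 0.50 (SE 0.41) and Oaz2 at -0.39 (SE 0.33). Matrix genes gave 0 calls among 33 tested, with the proteoglycan Vcan at 1.41 (SE 0.46, adjusted p = 0.405) and the collagen gene Col3a1 at -0.37 (SE 0.69). Of 12 glucocorticoid receptor and response genes 0 were called, with Anxa1 at 0.52 (SE 0.28) and Klf9 at -0.49 (SE 0.28).

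Ckm, the muscle creatine kinase, had signals of 130, 301, 497 and 130 in the 6 h exercised group and of 256, 130, 130 and 27771 in the control, by its 1 tested probe set. An unnamed probe set with several symbols lay at the floor in all 4 control numbers and had 8389, 8502, 1313 and 6783 in the 6 h exercised group. Its log2 difference was at least 5.28 (SE 0.99, adjusted p = 0.0333), above the 4.92 of Hspa1a. With the block, adjusted p was 0.087 within the 2 groups and 0.0138 over all groups. The unnamed probe sets that rose and are not described above had log2 differences of 2.81 (SE 0.37), 2.85 (SE 0.39) and 2.87 (SE 0.54). Their limma adjusted p was 0.00385, 0.00385 and 0.0333. It was 0.0354, 0.075 and 0.0246 with the block within the 2 groups, and 0.0039, 0.0034 and 0.0234 over all groups.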
